A study of Homo sapiens with 2 samples.

Results

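Elastic fibres are extracellular cables that let connective tissue stretch and recoil. Described here are 10 genes, of the 33694 in the count matrix, that encode parts of the fibre and the enzymes that crosslink it. They are the microfibril genes FBN1 and MFAP2, the fibulin genes FBLN5, FBLN1 and EFEMP1, the elastin gene ELN, the lysyl oxidase genes LOX, LOXL1 and LOXL2, and LTBP1, which ties latent TGF-beta to the fibre. The genes were chosen from their levels in these same cells, by line and by the balance of VIM and KRT17. Differences between lines and between ranges of that balance are therefore given as descriptions, without a test, and nothing is supported by them. All 10 symbols were found in the matrix, and 8 of the 10 passed a filter of at least 5 CPM on average over the 3 labelled lines, where CPM is the count of a gene scaled to the same total in every group of cells.

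The cells derive from HMLER, a line of human mammary epithelial cells that were immortalised and transformed with an oncogenic RAS gene. C1 cells, which the submitters describe as stably epithelial before editing, were edited with a guide against EED (C1-sgEED), a guide against KMT2D (C1-sgKMT2D) or a control guide (C1-sgControl), and they carry what HMLER carries in all 3 lines. EED is needed for PRC2, the Polycomb enzyme that marks silenced genes, and KMT2D is an enzyme that marks enhancers. The question was whether epithelial cells gain access to mesenchymal states when either is lost. The lines were marked with hashtag antibodies, pooled and read as 1 gene expression library, so each line is 1 sample with no replicate. The titles speak of mixed clones and do not give the number of clones per line, so a mix of clones and cells that changed state cannot be told apart.

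In tissue, fibrillin microfibrils form first and serve as a scaffold. Fibulins carry elastin and the lysyl oxidases to that scaffold, where the enzymes oxidise lysines so that elastin and collagen chains bond to each other. The fibres are laid down mainly by fibroblasts and smooth muscle cells, and several of these genes are known to be raised when epithelial cells become mesenchymal. Vimentin (VIM) is an intermediate filament protein of mesenchymal cells, and keratin 17 (KRT17) is an intermediate filament protein of basal epithelial cells.

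After filtering, C1-sgEED had 2338 cells, C1-sgKMT2D 2348 and C1-sgControl 1720, with 10256770, 13957344 and 9927122 unique molecular identifiers (UMIs) in all. Median UMIs per cell were 3915 in C1-sgEED, 5526 in C1-sgKMT2D and 5672.5 in C1-sgControl. The filter removed 6.78% of C1-sgEED, 5.89% of C1-sgKMT2D and 27.2% of C1-sgControl barcodes. EED was read at 13.4 CPM in C1-sgEED, 15.3 CPM in C1-sgKMT2D and 13.6 CPM in C1-sgControl, and KMT2D at 3.02, 5.02 and 4.63 CPM in the same order. A small edit need not change a count read at the end of a transcript, so these levels do not check the labels. Within C1-sgEED, EED was read at 3.91 CPM in VIM-rich and 19.96 CPM in KRT17-rich cells. The same ranges of C1-sgKMT2D had 17.1 and 13.5 CPM, and KRT17-rich C1-sgControl cells had 13.7 CPM. KRT17-rich C1-sgEED cells thus did not read EED below C1-sgControl. Whether the edit differs between the ranges was not tested.

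Each cell was placed by its VIM share, the VIM UMIs over the VIM and KRT17 UMIs together. A share of at least 0.7 is called VIM-rich, a share of at most 0.3 KRT17-rich, and the rest between, which are ranges of a score and not cell types. VIM-rich cells were 45.9% of C1-sgEED (95% interval 43.9 to 47.9), 38.0% of C1-sgKMT2D (36.0 to 39.99) and 0.698% of C1-sgControl (0.361 to 1.22). The 12 VIM-rich C1-sgControl cells are too few to read members in, so they enter no ratio. The ranges do not hold the same cells in each line. VIM itself was read at 7384 CPM in VIM-rich C1-sgEED cells and at 4916 CPM in VIM-rich C1-sgKMT2D cells. In KRT17-rich cells it was read at 935 CPM for C1-sgEED, 2255 CPM for C1-sgKMT2D and 979 CPM for C1-sgControl. Intervals are exact, at 95%, and cover counting error only.

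Most of the 7 fibroblast markers were higher in VIM-rich cells. They summed to 303 CPM in VIM-rich C1-sgEED and 361 CPM in VIM-rich C1-sgKMT2D cells, against 25.8 CPM in KRT17-rich C1-sgControl cells. The lines differed in which markers they read: VIM-rich C1-sgEED cells had 65.8 CPM of COL1A1 and 21.8 CPM of LUM, against 11.97 and 3.29 CPM in VIM-rich C1-sgKMT2D cells, which in turn had 143 CPM of DCN and 20.7 CPM of PDGFRA against 32.8 and 0.978 CPM in VIM-rich C1-sgEED cells. COL3A1 made up much of both sums, at 164 CPM in VIM-rich C1-sgEED and 172 CPM in VIM-rich C1-sgKMT2D cells. FAP did not share this course, at 8.81 CPM in VIM-rich and 10.4 CPM in KRT17-rich C1-sgEED cells, 2.35 and 3.18 CPM in the same ranges of C1-sgKMT2D, and 8.27 CPM in KRT17-rich C1-sgControl cells. COL1A1 in KRT17-rich cells had 17.01 CPM in C1-sgEED, 10.5 CPM in C1-sgKMT2D and 15.7 CPM in C1-sgControl, and the 11.97 CPM of VIM-rich C1-sgKMT2D cells lay among these. Basal epithelial markers summed to 732 CPM in VIM-rich C1-sgEED and 990 CPM in VIM-rich C1-sgKMT2D cells, against 12962 CPM in KRT17-rich C1-sgControl cells. The 6 endothelial markers summed to 0.734 and 0.704 CPM in VIM-rich C1-sgEED and C1-sgKMT2D cells. In the same order, the 6 smooth muscle and pericyte markers summed to 10.0 and 21.1 CPM and the 8 immune markers to 10.5 and 19.0 CPM. Of the immune markers, 6 were at 0 in both, PTPRC, CD3E and LYZ among them. CD68 had 8.56 and 18.1 CPM, against 20.9 CPM in KRT17-rich C1-sgControl cells, and CD14 had 1.96 and 0.939 CPM. The part of these markers in the levels of the 10 genes was not tested.

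Together the 10 genes reached 332 CPM in C1-sgEED (321 to 344), 153 CPM in C1-sgKMT2D (147 to 160) and 131 CPM in C1-sgControl (124 to 139). In C1-sgEED the sum was 578 CPM in VIM-rich and 136 CPM in KRT17-rich cells. It was 235 CPM in VIM-rich and 88.8 CPM in KRT17-rich C1-sgKMT2D cells, and 132 CPM in KRT17-rich C1-sgControl cells. Between cells had 252 CPM in C1-sgEED (229 to 277), 152 CPM in C1-sgKMT2D (140 to 164) and 132 CPM in C1-sgControl (116 to 149). The sum of KRT17-rich C1-sgEED cells overlapped that of KRT17-rich C1-sgControl cells, although single members differed in both directions. A level over all cells of a line joins the share of VIM-rich cells with the level inside them, so both are given for each gene.

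**Figure D1:**
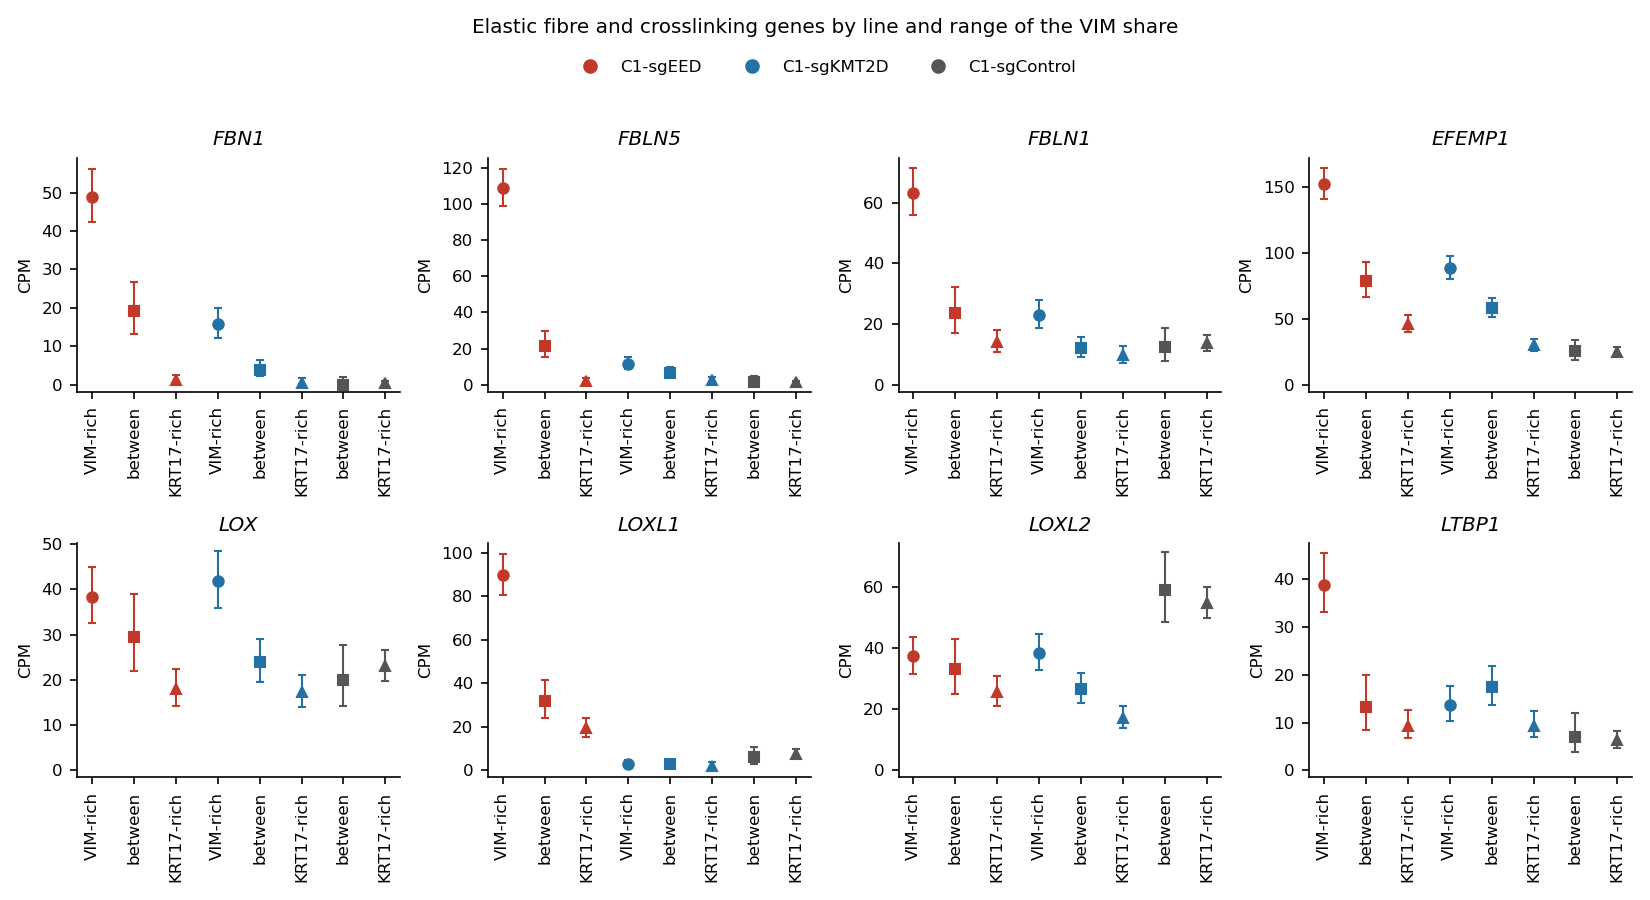
Level in CPM of the 8 genes that passed the level filter, by line (colour) and range of the VIM share (circle VIM-rich, square between, triangle KRT17-rich), with exact 95% Poisson intervals of the summed UMIs. FBN1, FBLN5, FBLN1, EFEMP1, LOXL1 and LTBP1 were at their highest in VIM-rich C1-sgEED cells, while LOXL2 was highest in the 2 ranges of C1-sgControl.

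FBN1 encodes fibrillin-1, the backbone of the microfibril and the gene mutated in Marfan syndrome. It was read with 200 UMIs in VIM-rich, 33 in between and 5 in KRT17-rich C1-sgEED cells, which is 48.9, 19.1 and 1.13 CPM. In C1-sgKMT2D the same ranges had 67, 17 and 3 UMIs, or 15.7, 3.95 and 0.562 CPM. C1-sgControl had 3 UMIs of FBN1 in all, each in a KRT17-rich cell, or 0.376 CPM there. FBN1 was thus near absent from KRT17-rich cells of every line and present in the VIM-rich cells of both edited lines. Over all cells it was 76.8-fold higher in C1-sgEED than in C1-sgControl (26.0 to 375) and 20.6-fold higher in C1-sgKMT2D than in C1-sgControl (6.83 to 102), both against those 3 UMIs. In order, VIM-rich C1-sgEED stood first, then between C1-sgEED and VIM-rich C1-sgKMT2D, whose intervals overlap (13.2 to 26.9 and 12.2 to 19.98 CPM). Between C1-sgKMT2D cells came next (2.30 to 6.32 CPM), with an interval that overlaps that of KRT17-rich C1-sgEED cells (0.368 to 2.65 CPM). The remaining groups, KRT17-rich C1-sgEED cells among them, overlapped each other.

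The gene spans chr15:48408306-48645849 on the minus strand of GRCh38. Its RefSeq promoter (GRCh38.p14, minus strand, chr15:48644921-48645220, 250 bases before to 50 after the start) is shown because FBN1 is the backbone gene and was near absent from C1-sgControl, with CpG dinucleotides in capitals, since CpG-rich promoters are the usual sites of PRC2 in mammals.
FBN1 promoter: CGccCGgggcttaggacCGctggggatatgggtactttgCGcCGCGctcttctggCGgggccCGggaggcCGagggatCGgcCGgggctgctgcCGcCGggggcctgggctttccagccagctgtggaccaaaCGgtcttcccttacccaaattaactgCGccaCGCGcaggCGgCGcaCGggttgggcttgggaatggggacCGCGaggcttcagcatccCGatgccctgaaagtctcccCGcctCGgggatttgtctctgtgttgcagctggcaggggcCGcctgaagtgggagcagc
It holds 26 CpG, against a median of 14 over all 35116 promoters of this length in the table, and more than 69.9% of them. Neither PRC2 nor its mark was read in these libraries, so a part of PRC2 in the level of FBN1 was not tested.

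MFAP2 encodes MAGP-1, a small glycoprotein that sits on microfibrils. It had 8 UMIs in C1-sgEED, 1 in C1-sgKMT2D and 1 in C1-sgControl, too few to follow across the ranges. ELN encodes tropoelastin, the elastic core of the fibre. It had 1 UMI in C1-sgEED, 1 in C1-sgKMT2D and 0 in C1-sgControl, which for C1-sgControl allows up to 0.302 CPM. The elastin transcript was thus not detectable above single UMIs at this depth.

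FBLN5 encodes fibulin-5, which binds elastin, cell-surface integrins and LOXL1. It was read at 109 CPM in VIM-rich, 21.4 CPM in between and 2.04 CPM in KRT17-rich C1-sgEED cells. In C1-sgKMT2D the values were 11.7, 6.74 and 2.62 CPM. C1-sgControl had 1.62 CPM in between and 1.25 CPM in KRT17-rich cells. VIM-rich C1-sgEED cells stood apart from every other group, and the KRT17-rich groups of the 3 lines overlapped. The VIM-rich cells of C1-sgKMT2D were 9.27-fold lower than those of C1-sgEED (6.91 to 12.7). Over all cells FBLN5 was 36.6-fold higher in C1-sgEED than in C1-sgControl (21.2 to 69.3) and 5.09-fold higher in C1-sgKMT2D than in C1-sgControl (2.83 to 9.91).

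FBLN5 lies at chr14:91869412-91947987 on the minus strand of GRCh38. RefSeq gives it a pair of start sites, at chr14:91947645-91947944 and chr14:91946983-91947282 as 300-base windows of GRCh38.p14 on the minus strand. They are shown because they differ in type, with CpG in capitals.
FBLN5 promoter 1: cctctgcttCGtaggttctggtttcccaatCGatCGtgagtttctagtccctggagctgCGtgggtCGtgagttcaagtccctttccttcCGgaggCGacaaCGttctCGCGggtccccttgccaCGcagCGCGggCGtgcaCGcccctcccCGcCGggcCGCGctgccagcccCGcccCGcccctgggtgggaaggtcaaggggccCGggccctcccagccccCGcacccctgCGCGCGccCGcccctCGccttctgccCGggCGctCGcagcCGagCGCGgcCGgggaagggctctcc
FBLN5 promoter 2: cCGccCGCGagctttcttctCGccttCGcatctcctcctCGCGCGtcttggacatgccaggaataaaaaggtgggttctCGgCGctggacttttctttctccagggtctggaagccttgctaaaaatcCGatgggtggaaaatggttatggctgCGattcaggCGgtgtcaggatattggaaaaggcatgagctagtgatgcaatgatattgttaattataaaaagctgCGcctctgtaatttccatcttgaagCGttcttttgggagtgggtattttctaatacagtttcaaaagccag
The first holds 35 CpG and no TATAAA on the gene's strand. The second holds 15 CpG and a TATAAA match whose first base lies 33 bases before the start, a motif found in 7.33% of promoters. The 3 prime counts do not tell which start was used.

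FBLN1 encodes fibulin-1, a glycoprotein of basement membranes and elastic fibres. Its level was 63.3 CPM in VIM-rich, 23.8 CPM in between and 14.1 CPM in KRT17-rich C1-sgEED cells. In C1-sgKMT2D it was 23.0, 12.1 and 9.74 CPM, and in C1-sgControl 12.5 CPM in between and 13.7 CPM in KRT17-rich cells. FBLN1 thus had a level in epithelial control cells that FBN1 and FBLN5 lacked. Over all cells it was 2.64-fold higher in C1-sgEED than in C1-sgControl (2.16 to 3.25), while C1-sgKMT2D was within 1.5-fold of C1-sgControl (ratio 1.08, 0.864 to 1.35).

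EFEMP1 encodes fibulin-3, which binds TIMP3 and is widely made by fibroblasts. VIM-rich, between and KRT17-rich cells had 152, 78.8 and 46.3 CPM in C1-sgEED and 88.5, 58.3 and 30.0 CPM in C1-sgKMT2D. C1-sgControl had 25.5 CPM in between and 24.9 CPM in KRT17-rich cells. Each edited line ran down in the same order, with intervals that did not overlap within a line. The KRT17-rich cells of C1-sgEED were 1.86-fold higher than those of C1-sgControl (1.52 to 2.27), and those of C1-sgKMT2D were 1.20-fold higher (0.970 to 1.49), within the 1.5-fold bound. Over all cells EFEMP1 was 3.78-fold higher in C1-sgEED than in C1-sgControl (3.28 to 4.37) and 2.29-fold higher in C1-sgKMT2D than in C1-sgControl (1.98 to 2.65).

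LOX, the founding lysyl oxidase, is secreted as a proenzyme that BMP1 cleaves, and it crosslinks collagen and elastin. In C1-sgEED it was read at 38.4, 29.6 and 17.9 CPM in VIM-rich, between and KRT17-rich cells. In C1-sgKMT2D it was read at 41.8, 23.9 and 17.2 CPM, and in C1-sgControl at 20.04 CPM in between and 23.05 CPM in KRT17-rich cells. The lines did not differ by 1.5-fold over all cells: C1-sgEED had 28.2 CPM, C1-sgKMT2D 26.9 CPM and C1-sgControl 22.3 CPM. Within the edited lines, VIM-rich cells were 2.14-fold higher than KRT17-rich cells in C1-sgEED (1.63 to 2.85) and 2.42-fold higher in C1-sgKMT2D (1.87 to 3.15). LOX overlaps SRFBP1, on the opposite strand, and no source used here says whether the counting used strand.

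LOXL1, the lysyl oxidase paralog that fibulin-5 tethers to elastin and that mice need for normal elastic fibres, was the gene on which the edited lines parted. It was read at 89.8 CPM in VIM-rich, 31.9 CPM in between and 19.3 CPM in KRT17-rich C1-sgEED cells. In C1-sgKMT2D the ranges had 2.82, 2.79 and 2.06 CPM, with 12, 12 and 11 UMIs. C1-sgControl had 5.96 CPM in between and 7.64 CPM in KRT17-rich cells. All 3 C1-sgEED ranges stood above C1-sgControl, and in C1-sgKMT2D the level was low whatever the VIM share. Over all cells LOXL1 was 6.82-fold higher in C1-sgEED than in C1-sgControl (5.32 to 8.85) and 2.89-fold lower in C1-sgKMT2D than in C1-sgControl (1.91 to 4.46). VIM-rich C1-sgKMT2D cells were 31.9-fold lower than VIM-rich C1-sgEED cells (18.0 to 62.2). Its antisense gene LOXL1-AS1 had 6.43 CPM in C1-sgEED, 0.645 CPM in C1-sgKMT2D and 1.51 CPM in C1-sgControl, and reads of the pair may not be separable without strand.

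LOXL1 lies at chr15:73925989-73952137 on the plus strand of GRCh38. Its RefSeq promoter (GRCh38.p14, plus strand, chr15:73926212-73926511) is shown for its contrast with FBN1, with CpG in capitals.
LOXL1 promoter: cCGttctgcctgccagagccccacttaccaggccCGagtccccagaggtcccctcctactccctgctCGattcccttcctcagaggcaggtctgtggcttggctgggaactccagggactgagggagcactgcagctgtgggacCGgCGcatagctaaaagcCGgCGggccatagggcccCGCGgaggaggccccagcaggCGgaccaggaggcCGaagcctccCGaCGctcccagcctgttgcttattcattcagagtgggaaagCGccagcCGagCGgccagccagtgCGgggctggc
It holds 17 CpG, close to the median of 14, and none of the 4 motifs searched below.

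LOXL2, a lysyl oxidase of basement membrane and tumour matrix, was the member that ran the other way. C1-sgEED had 37.2, 33.0 and 25.6 CPM in VIM-rich, between and KRT17-rich cells, and C1-sgKMT2D had 38.3, 26.5 and 17.05 CPM. C1-sgControl had 59.0 CPM in between and 54.6 CPM in KRT17-rich cells. Both of these C1-sgControl intervals lay above every interval of the edited lines. Over all cells LOXL2 was 1.77-fold lower in C1-sgEED than in C1-sgControl (1.54 to 2.03) and 2.11-fold lower in C1-sgKMT2D than in C1-sgControl (1.84 to 2.41). In KRT17-rich cells alone it was 2.13-fold lower in C1-sgEED (1.73 to 2.64) and 3.20-fold lower in C1-sgKMT2D (2.55 to 4.06) than in C1-sgControl. The difference was thus also there without the VIM-rich cells. For C1-sgKMT2D the interval lay above that over all cells, while for C1-sgEED the intervals overlap. Inside the edited lines LOXL2 was higher in VIM-rich than in KRT17-rich cells, by 1.45-fold in C1-sgEED (1.13 to 1.87) and by 2.24-fold in C1-sgKMT2D (1.73 to 2.93). LOXL2 overlaps ENTPD4 on the same strand.

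LTBP1 encodes a binding protein that holds latent TGF-beta on fibrillin microfibrils. It was read at 38.9, 13.3 and 9.30 CPM in VIM-rich, between and KRT17-rich C1-sgEED cells. C1-sgKMT2D had 13.6, 17.4 and 9.37 CPM, and C1-sgControl 7.04 CPM in between and 6.26 CPM in KRT17-rich cells. Only VIM-rich C1-sgEED cells stood clear of all other groups shown. Over all cells LTBP1 was 3.46-fold higher in C1-sgEED than in C1-sgControl (2.60 to 4.65) and 2.07-fold higher in C1-sgKMT2D than in C1-sgControl (1.54 to 2.80).

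Read against all genes, a member counts as higher or lower past 1.5-fold on the CPM + 1 scale. Between C1-sgEED and C1-sgControl, 6 of the 8 members were higher, where 10.5% of the 9420 genes that passed the same filter were, and 1 was lower, where 7.31% were. Between C1-sgKMT2D and C1-sgControl, 4 were higher, where 7.02% of genes were, and 2 were lower, where 13.3% were. These comparisons share C1-sgControl. The members' median log2 ratio was 1.76 for C1-sgEED over C1-sgControl and 0.60 for C1-sgKMT2D over C1-sgControl, against 0.08 and -0.03 over all genes. Between C1-sgKMT2D and C1-sgEED, 0 members were higher, where 2.79% of genes were, and 6 were lower, where 12.5% were, with a median of -0.97 against -0.10 over all genes. As the members were chosen from these contrasts, nothing is read from the counts.

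Within C1-sgEED, VIM-rich cells were higher than KRT17-rich cells in 7 of the 8 members, where 13% of genes were, and lower in 0, where 16.4% were, with a median log2 ratio of 2.02. Within C1-sgKMT2D they were higher in 6, where 9.72% of genes were, and lower in 0, where 10.8% were, with a median of 1.20. LOXL2 in C1-sgEED and LOXL1 and LTBP1 in C1-sgKMT2D stayed within the bound. Set against each other, VIM-rich C1-sgKMT2D cells were higher than VIM-rich C1-sgEED cells in 0 members, where 10.5% of genes were, and lower in 6, where 18.9% were. The 2 that did not differ by 1.5-fold were LOX (ratio 1.09, 0.873 to 1.36) and LOXL2 (1.03, 0.820 to 1.29).

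**Figure D2:**
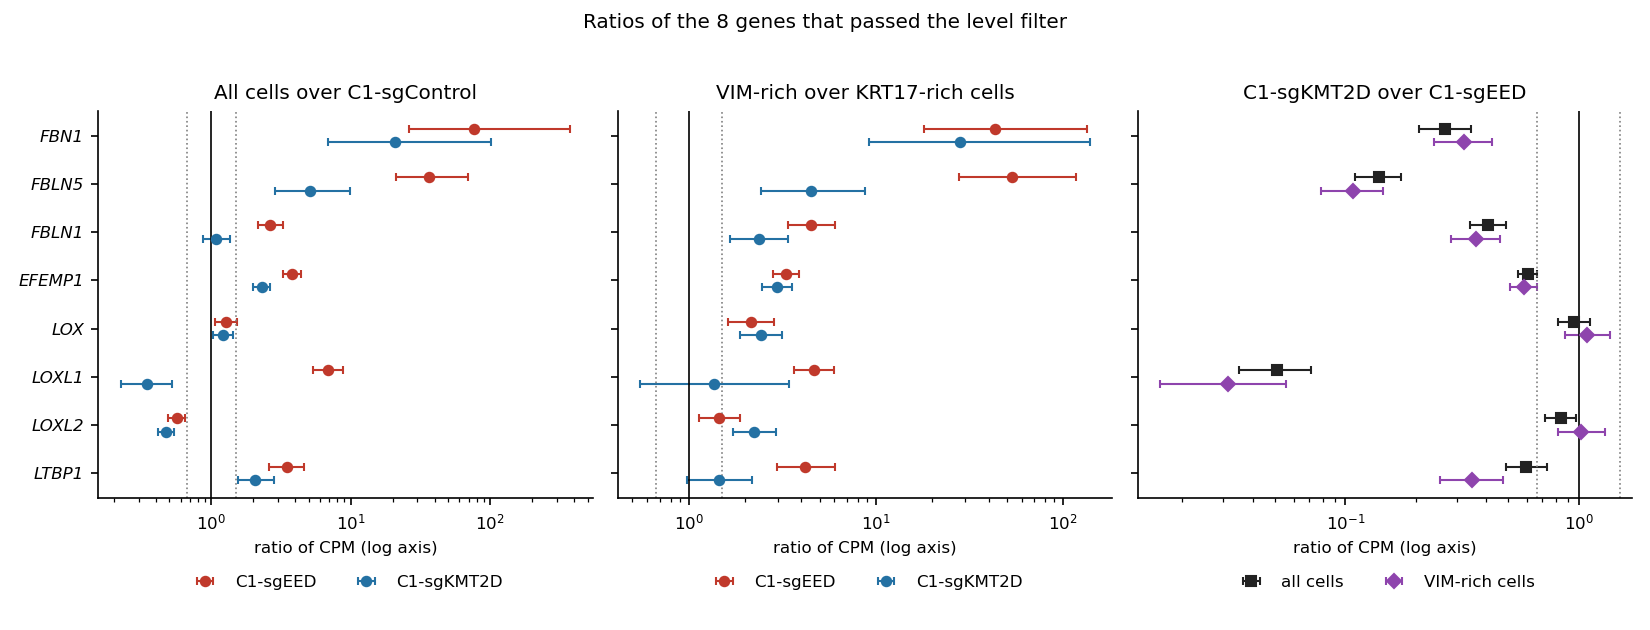
Ratio of CPM on a log axis, without pseudocount, for the 8 genes that passed the level filter, with exact 95% intervals; dotted lines mark 1.5-fold. The left panel sets each edited line over C1-sgControl, the middle panel VIM-rich over KRT17-rich cells, and the right panel C1-sgKMT2D over C1-sgEED; LOXL1 lies on opposite sides of 1 in the left panel, and LOX and LOXL2 lie near 1 in the right panel.

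In KRT17-rich cells fewer members were past 1.5-fold. Between C1-sgEED and C1-sgControl, 3 members were higher, where 8.74% of genes were: EFEMP1, LOXL1 (2.52-fold, 1.79 to 3.57) and FBN1, the last on 5 UMIs against 3 with an interval that includes 1. LOXL2 was the 1 member lower, where 4.78% of genes were. Between C1-sgKMT2D and C1-sgControl, FBLN5 alone was higher, where 6.63% of genes were, on 14 UMIs against 10 and with an interval of the ratio that includes 1 (0.865 to 5.27). LOXL1 (3.71-fold) and LOXL2 were the 2 lower, where 13.7% were. The members' median log2 ratio was 0.47 for C1-sgEED and -0.11 for C1-sgKMT2D, against 0.07 and -0.03 over all genes.

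Along finer steps of the VIM share the members did not follow the same course. In C1-sgEED, FBLN5 was read at 2.10, 2.95, 10.4, 86.2 and 110 CPM in the 5 steps of 0.2 from low to high share, with the largest step up between the third and the fourth. FBN1 had 1.499, 0.590, 15.6, 68.1 and 46.5 CPM in these steps. LOXL1 had 19.5, 18.3, 27.3, 59.0 and 93.3 CPM, and LTBP1 had 8.99, 11.2, 11.7, 19.7 and 40.4 CPM. FBN1, FBLN5, FBLN1 and EFEMP1 were thus near their top in the fourth step, while LOXL1 and LTBP1 were higher again in the last, LTBP1 with an interval of 10.5 to 33.6 CPM in the fourth step and 34.2 to 47.4 CPM in the fifth.

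In C1-sgKMT2D, FBN1 had 0.321, 1.07, 3.31, 7.35 and 18.2 CPM in the same steps, a gradual course to a lower end. EFEMP1 had 25.7, 36.2, 58.7, 101 and 86.9 CPM. LOX had 16.4, 19.6, 24.6, 31.6 and 43.0 CPM, the same end as in C1-sgEED (38.0 CPM, 32.0 to 44.8) within counting error. LOXL1 stayed between 2.14 and 3.79 CPM in all 5 steps. C1-sgControl had at least 50 cells only in the first 3 steps, and EFEMP1 had 24.8, 26.4 and 25.8 CPM in them, while LOXL2 had 51.9, 60.0 and 64.0 CPM.

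**Figure D3:**
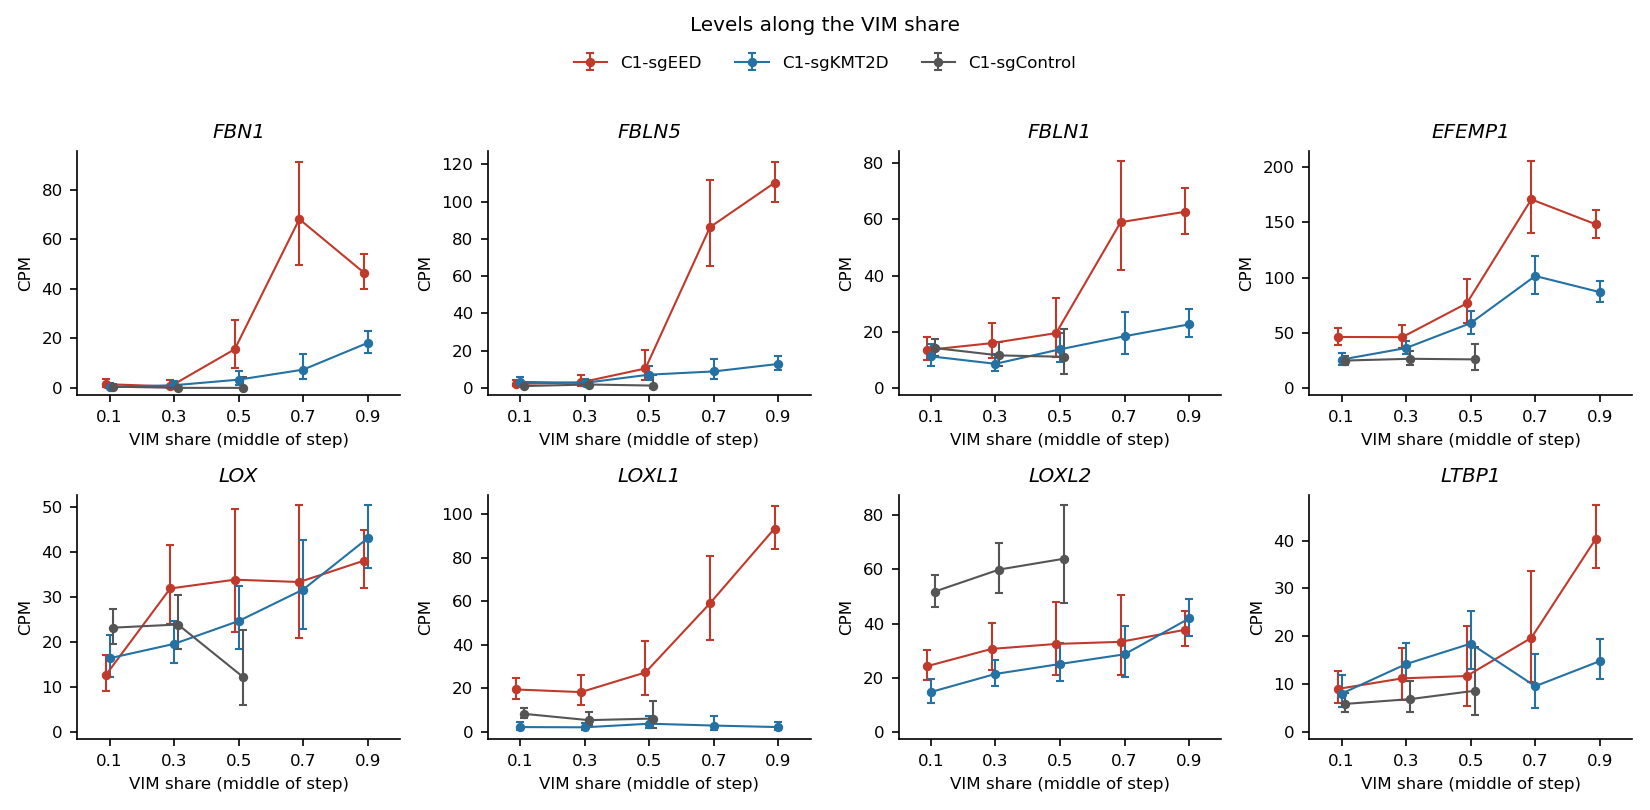
Level in CPM against the VIM share, in 5 steps of 0.2 drawn at their middle, with exact 95% Poisson intervals; steps with under 50 cells are not drawn, which leaves C1-sgControl with 3. FBLN5 in C1-sgEED reaches 86.2 CPM in the fourth step from 10.4 CPM in the third, and LOXL1 in C1-sgKMT2D stays under 4 CPM along the whole range.

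The reads were spread over many cells. With each cell thinned to 2000 UMIs, FBLN5 had a UMI in 165 of 976 VIM-rich C1-sgEED cells (16.9%, 14.6 to 19.4), in 16 of 857 VIM-rich C1-sgKMT2D cells (1.87%) and in 4 of 1335 KRT17-rich C1-sgControl cells (0.2996%). FBN1 had one in 8.71%, 3.27% and 0.150% of these groups, and LOXL1 in 15.7%, 0.7001% and 1.72%. KRT17-rich C1-sgControl cells, from the same droplet run and so with the same free RNA, give a background for FBN1 and FBLN5. They give none for LOXL1, which they read at a higher share than VIM-rich C1-sgKMT2D cells did. At least 1 of the 10 genes was seen in 62.4% of VIM-rich C1-sgEED cells, 38.0% of VIM-rich C1-sgKMT2D cells and 23.0% of KRT17-rich C1-sgControl cells.

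Without thinning, FBLN5 had a UMI in 29.3% of VIM-rich C1-sgEED, 4.82% of VIM-rich C1-sgKMT2D and 0.717% of KRT17-rich C1-sgControl cells, at median depths of 3397, 4351 and 5615.5 UMIs. The group with the highest shares was thus the shallowest. Within VIM-rich C1-sgEED cells, those at or above the median depth had 108 CPM of FBLN5 and 89.1 CPM of LOXL1, against 111 and 91.1 CPM in those below it, while EFEMP1 had 167 and 123 CPM. Of VIM-rich C1-sgEED cells with a UMI of FBN1 after thinning, 23.5% also had one of FBLN5 (20 of 85, 15.0 to 34.0), against 16.3% of those without (145 of 891, 13.9 to 18.9), and these intervals overlap.

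**Figure D4:**
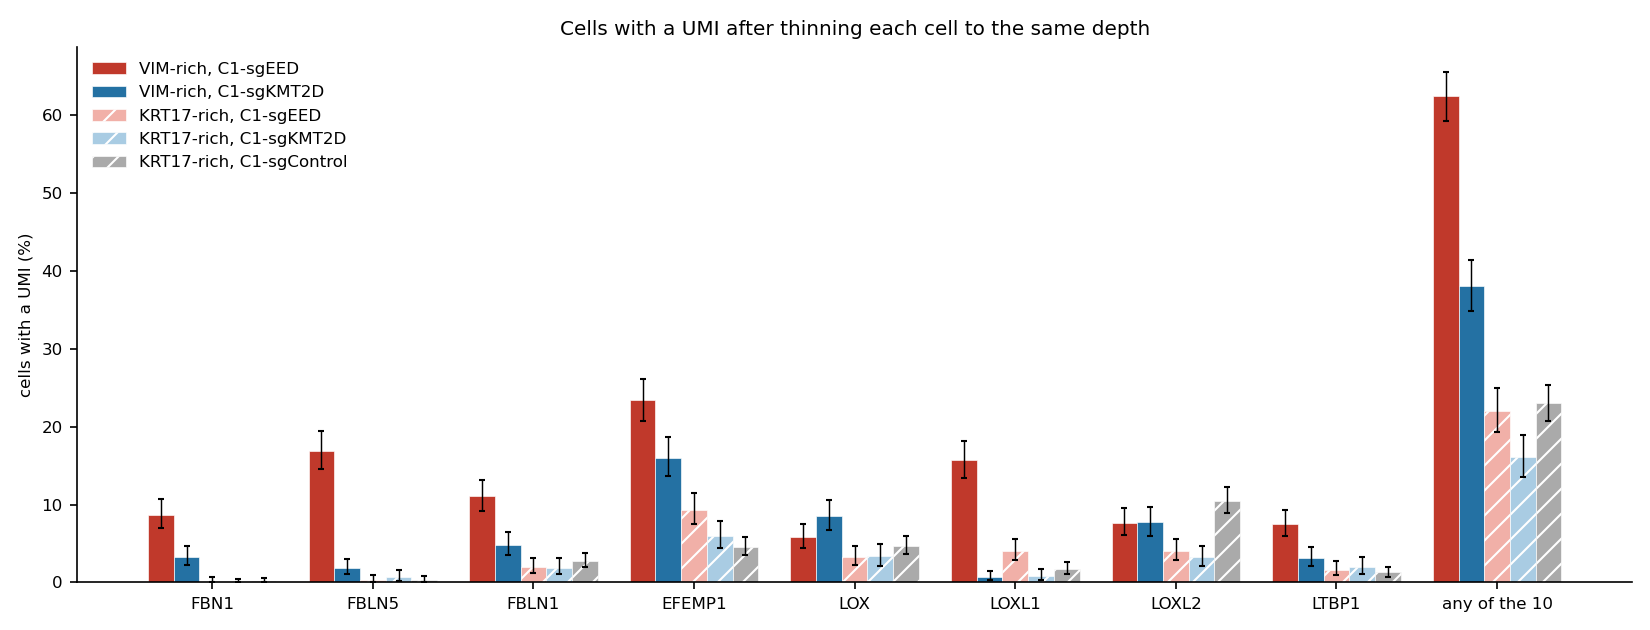
Share of cells with at least 1 UMI of each gene, and of any of the 10, after thinning each cell to 2000 UMIs, with exact 95% Clopper-Pearson intervals; solid bars are VIM-rich and hatched bars KRT17-rich cells. Any of the 10 genes was seen in 62.4% of VIM-rich C1-sgEED and 38.0% of VIM-rich C1-sgKMT2D cells, against 23.0% of KRT17-rich C1-sgControl cells.

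The promoter windows of 7 of the 10 genes were searched for motifs, 13 windows in all. EFEMP1, ELN and LOXL2 are named only. The letters searched, on both strands except the last, were CAGGTG, an E-box form bound by ZEB1 (in 20.59% of all promoters), GGAATG, bound by TEAD factors (14.03%), TGANTCA, bound by AP-1 (7.71%), and TATAAA on the gene's strand (7.33%). FBN1 had 1 GGAATG match, 58 bases before the start. MFAP2 had 1 CAGGTG and 2 TGANTCA matches in the window of its first start site. The second and the third start site of LOX share a CAGGTG, since their windows overlap. A match is only a match of letters, and no match says nothing of a factor.

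Other genes of elastic fibres and microfibrils, from a list of 28 of which 10 passed the level filter, did not move as a block. For C1-sgEED over C1-sgControl 2 were higher and 1 lower, with a median log2 ratio of 0.12, where 10.5% of all genes were higher and 7.31% lower. For C1-sgKMT2D over C1-sgControl 2 were higher and 4 lower, with a median of -0.13, where 7.02% of all genes were higher and 13.3% lower. VCAN, the proteoglycan versican that binds fibrillin, was read at 58.2 CPM in VIM-rich C1-sgEED and 62.2 CPM in VIM-rich C1-sgKMT2D cells, against 2.63 CPM in KRT17-rich C1-sgControl cells. KRT17-rich C1-sgEED cells had 24.3 CPM and KRT17-rich C1-sgKMT2D cells 14.05 CPM, and those of C1-sgEED were 9.23-fold higher than those of C1-sgControl (5.74 to 15.5). FBN2, the second fibrillin, had 16.2 CPM in C1-sgEED, 8.24 CPM in C1-sgKMT2D and 20.4 CPM in C1-sgControl. HSPG2, the basement membrane proteoglycan perlecan, had 15.7 CPM in C1-sgEED, 9.82 CPM in C1-sgKMT2D and 34.1 CPM in C1-sgControl.

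Of 21 other crosslinking enzymes and activators, 16 passed. In C1-sgEED, VIM-rich over KRT17-rich cells, 8 were higher and 0 lower, with a median log2 ratio of 0.62, where 13% of all genes were higher and 16.4% lower. In C1-sgKMT2D, 5 were higher and 1 lower, with a median of 0.18, where 9.72% of all genes were higher and 10.8% lower. PCOLCE, which speeds the cleavage of fibrillar procollagens by BMP1, had 55.3 CPM in VIM-rich and 4.08 CPM in KRT17-rich C1-sgEED cells, and 5.4 CPM in VIM-rich C1-sgKMT2D cells. PCOLCE2 differed between the lines in the other direction, at 24.2 CPM in VIM-rich C1-sgKMT2D and 11.5 CPM in VIM-rich C1-sgEED cells. KRT17-rich C1-sgKMT2D cells had 5.06 CPM of it. PLOD2, the lysyl hydroxylase that sets the type of collagen crosslink, had 95.4 CPM in VIM-rich against 38.1 CPM in KRT17-rich C1-sgEED cells. In C1-sgKMT2D it had 75.1 against 22.3 CPM. KRT17-rich C1-sgControl cells already had 69.0 CPM of PLOD2, and KRT17-rich C1-sgKMT2D cells were 3.10-fold lower than these (2.53 to 3.81). TGM2, the transglutaminase that links fibrillin and fibronectin, had 125 CPM in VIM-rich C1-sgEED and 16.7 CPM in VIM-rich C1-sgKMT2D cells, a 7.51-fold difference (5.85 to 9.77). It was the 1 gene lower in VIM-rich than in KRT17-rich C1-sgKMT2D cells, which had 45.0 CPM.

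For latent TGF-beta binding and activation, 13 of 19 genes passed. Over all cells, 1 was higher and 1 lower in C1-sgEED than in C1-sgControl, where 10.5% and 7.31% of all genes were. In C1-sgKMT2D 0 were higher and 5 lower than in C1-sgControl, where 7.02% and 13.3% of all genes were. LTBP2, a fibrillin-binding relative of LTBP1, had 20.5 CPM in VIM-rich C1-sgEED and 2.58 CPM in VIM-rich C1-sgKMT2D cells. ITGB6, the epithelial integrin subunit that activates latent TGF-beta, ran against the members, at 4.65 CPM in VIM-rich and 48.1 CPM in KRT17-rich C1-sgEED cells and at 2.11 and 22.7 CPM in C1-sgKMT2D.

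Among 21 proteases that cut elastin and their inhibitors, 14 passed. In VIM-rich over KRT17-rich C1-sgEED cells 2 were higher and 6 lower, where 13% and 16.4% of all genes were. In C1-sgKMT2D 6 were higher and 5 lower, where 9.72% and 10.8% of all genes were. MMP9, a gelatinase that also cuts elastin, had 51.8 CPM in C1-sgEED, 9.10 CPM in C1-sgKMT2D and 119 CPM in C1-sgControl. The elastase inhibitor SLPI had 11.01 CPM in VIM-rich and 252 CPM in KRT17-rich C1-sgEED cells.

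The genes with the most similar profile to each member were sought over the 8 groups of line and range with at least 50 cells, by the root mean square difference of centred log2 values among 6275 genes. FBN1 was nearest to SRGN (0.37), ZEB1 (0.52) and IGFBP4 (0.53), and FBLN5 to NR2F1 (0.43), HHIP (0.46) and SRGN (0.50). LOXL1 was nearest to SERTAD4-AS1 (0.38), PTN (0.49) and SPOCK1 (0.50). FBLN1 lay nearest to HEG1 (0.17), CDK5RAP2 (0.22) and P3H1 (0.23), and EFEMP1 to FGFR1 (0.19), GFPT2 (0.23) and SYNE1 (0.28). LOX lay nearest to PRAF2 (0.14), USP11 (0.15) and CTSA (0.17), LOXL2 to HSPA1A (0.15), NFATC2IP (0.22) and TBC1D10B (0.24), and LTBP1 to MNS1 (0.10), E2F1 (0.22) and CDKN2C (0.23). The groups share 1 library and 3 lines, so these are descriptions of 8 points.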

How the data were processed

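The authors deposited 1 matrix of UMI counts, whole numbers per gene or hashtag and barcode, made with Cell Ranger 3.0.2 on GRCh38 per the submitters' processing notes. No source used here gives the annotation version or strand setting. The matrix holds 10336 barcodes, and none is listed more than once.

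A barcode was kept with at least 500 genes and at most 20% mitochondrial UMIs, and 9193 were kept. A barcode was given to a line when the count of a single hashtag passed a mixture threshold. Barcodes with several hashtags (827, 9.00%) were removed as doublets. By the labels, hashtag 3 marks C1-sgEED, hashtag 4 C1-sgKMT2D and hashtag 1 C1-sgControl. They give no line for hashtag 2, whose cells enter no comparison between lines and are set beside C1-sgControl only among the results for a closer look. Doublets within a hashtag were kept. Scrublet at its own threshold marked 0 barcodes, so the 10% with the highest scores were removed in an alternative chosen after seeing the data, as were the levels by depth.

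Sums of UMIs per line and range were divided by the group's total over all genes to give CPM. The VIM share needs at least 5 UMIs of the pair. Intervals at 95% are exact (Poisson for sums, conditional binomial for ratios, Clopper-Pearson for shares). With 1 sample per line there is no p-value. Log2 ratios and calls add 1 CPM. A count of 0 allows 3 counts. The ratio intervals were run on counts drawn at random from Poisson distributions. These draws hold no variation between cells, clones or samples, so they check the formula only. Python 3.11.15, numpy 2.4.6, pandas 2.3.3, scipy 1.17.1, scikit-learn 1.9.0 and scanpy 1.11.5 were used.

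The members and lists were chosen with earlier results of these data known. Named were all 10 members, and from each other list at most 5 genes per comparison that were past 2-fold and had at least 20 CPM in a group of it. COL1A1, LUM, DCN and PDGFRA were named after their values were seen. Likeness named the 3 nearest genes per member. The alternatives are other cell filters, hashtag and doublet calls, CPM bases, pseudocounts, folds, level filters, VIM share bounds and thinning depths.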

Additional observations from a re-analysis of the deposited data

Results flagged for a closer look

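LOXL1 lay on opposite sides of C1-sgControl in the edited lines. Its log2 ratio to C1-sgControl over all cells was 2.61 for C1-sgEED and -1.23 for C1-sgKMT2D. In KRT17-rich cells alone it was 1.23 for C1-sgEED and -1.50 for C1-sgKMT2D. Each line is 1 sample, so the difference between the lines was not tested.

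The labels give no line for hashtag 2. Over all of its cells, the counting intervals of FBLN5, FBLN1, LOXL1 and LTBP1 lay wholly above those of all C1-sgControl cells. Those of EFEMP1 (14.1 CPM in hashtag 2 cells, 24.9 CPM in C1-sgControl) and LOXL2 (28.1 and 55.5 CPM) lay wholly below. Those of FBN1 (1.06 and 0.302 CPM) and LOX (19.03 and 22.3 CPM) overlapped. These are the 8 members that passed the level filter. The share of all genes with such intervals was not computed, so nothing is read from the number of members. With no line known, the difference was not tested. FBLN5 was read at 31.2 CPM in hashtag 2 cells and 1.31 CPM in C1-sgControl. FBLN1 was read at 25.4 CPM in hashtag 2 cells and 13.4 CPM in C1-sgControl. LOXL1 was read at 16.2 CPM in hashtag 2 cells and 7.25 CPM in C1-sgControl. LTBP1 was read at 17.2 CPM in hashtag 2 cells and 6.35 CPM in C1-sgControl. VIM-rich cells were 51.2% of hashtag 2 and 0.698% of C1-sgControl, and these levels join all ranges. In KRT17-rich cells alone, FBLN5 had 3.35 CPM (1.35 to 6.91) in hashtag 2 and 1.25 CPM (0.601 to 2.30) in C1-sgControl. There the intervals of FBLN1, LOXL1, LTBP1, EFEMP1 and FBN1 overlapped as well, while those of LOX and LOXL2 lay below C1-sgControl.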

How the results depend on the processing

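Over all alternatives 752 of 760 member ratios kept their sign, and 735 stayed within the counting interval of the value reported. The 2-fold rule and the level filters of 1 and 20 CPM cannot change a ratio. The 64 ratios under each of these settings were therefore the same by construction and show no steadiness. Of 190 counts of members, 171 stayed within 1.5 times. No member called higher or lower changed direction. At least 2-fold in place of 1.5-fold left 0 members lower in C1-sgEED than in C1-sgControl, and in KRT17-rich cells C1-sgEED had 1 and C1-sgKMT2D 0 members higher than C1-sgControl. The shares of all genes given above hold for 1.5-fold and at least 5 CPM. They were not computed for the alternatives, so nothing is read from the counts given here. A filter of at least 20 CPM left only FBLN1, EFEMP1, LOX and LOXL2 to count. It gave 2 higher in C1-sgEED than in C1-sgControl, and 1 higher and 1 lower in C1-sgKMT2D than in C1-sgControl. It gave 2 lower in C1-sgKMT2D than in C1-sgEED, and 3 higher in VIM-rich than in KRT17-rich C1-sgEED cells. VIM-rich C1-sgKMT2D cells had 2 lower than VIM-rich C1-sgEED cells. In KRT17-rich cells 1 was higher in C1-sgEED, and 0 were higher and 1 lower in C1-sgKMT2D, than in C1-sgControl. The count of members higher in KRT17-rich C1-sgKMT2D than in KRT17-rich C1-sgControl cells was the least steady. It was 2 with at least 1000 genes and at most 10% mitochondrial UMIs, 0 without cells marked by Scrublet, 3 with a single VIM share bound of 0.5, and 3 with the split by the mesenchymal and epithelial lists. Bounds of 0.1 and 0.9 gave 1 member lower in VIM-rich than in KRT17-rich C1-sgKMT2D cells, and in KRT17-rich cells 2 lower in C1-sgEED and 4 lower in C1-sgKMT2D than in C1-sgControl. The 1 lower in VIM-rich C1-sgKMT2D cells was LOXL1, at a log2 ratio of -0.86 in place of 0.32. Shares of VIM-rich and KRT17-rich cells follow the bounds by construction. With the bound of 0.5 C1-sgEED had 52.1% and 47.0%, C1-sgKMT2D 49.7% and 49.1%, and C1-sgControl 4.71% and 94.1%. With bounds of 0.1 and 0.9 they were 35.1% and 16.7%, 23.5% and 7.50%, and 0% and 37.0%. With the list split they were 35.7% and 52.4%, 23.6% and 54.7%, and 0% and 99.5%. The stricter cell filter gave 50.7% and 33.9% in C1-sgEED. Of 50 shares of cells with a UMI, 32 left their interval without thinning and 31 with thinning to 4000 UMIs. No paired analysis was possible because each line is 1 sample. The depth limits ELN and MFAP2, and FBN1 and FBLN5 in C1-sgControl.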

Other observations

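The 1934 cells of hashtag 2 were 51.2% VIM-rich and 16.03% KRT17-rich. Their VIM-rich cells had 1.59 CPM of FBN1 (0.686 to 3.13), 60.2 CPM of FBLN5 (53.6 to 67.4) and 26.4 CPM of LOXL1 (22.1 to 31.3), against 0, 3.35 and 7.19 CPM in their KRT17-rich cells. EFEMP1 was read at 11.3 CPM in VIM-rich and 17.2 CPM in KRT17-rich cells of hashtag 2, and VCAN at 2.58 and 0 CPM. LOX was read at 31.4 CPM in VIM-rich and 5.75 CPM in KRT17-rich cells, and LOXL2 at 32.8 and 17.7 CPM. The labels do not say which line hashtag 2 marked, so these values are not compared with a line.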
